A study of Mus musculus with 5 samples.

Results

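The Trim genes encode a large family of proteins, most of them ubiquitin ligases, that were followed here in cells washed from the mouse peritoneal cavity after injection of vaccine adjuvants. Members were all genes on the array whose symbol is Trim followed by a number and an optional letter. There were 63 such genes among 20121 genes with a value on every array, and they were measured by 90 probes. Of 68 mouse genes with such a symbol in the RefSeq annotation, Trim5, Trim23, Trim30c, Trim34b and Trim43a had no probe matched to them.

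Female BALB/c mice received an intraperitoneal injection, and the peritoneal cells were collected 2 h later. Control mice received the vehicle, PBS. AEPS, a polysaccharide prepared from Actinidia eriantha roots, was given alone at 50 µg, and ovalbumin (OVA), the antigen, was given alone at 25 µg. The antigen at this dose was also combined with AEPS at 50 µg (OVA+AEPS) or with the aluminium adjuvant alum at 200 µg (OVA+Alum). Each injection was represented by 1 single-colour array, and the labels do not say whether the RNA came from 1 mouse or from a pool. No difference below therefore has a replicate check, no p-value is given, and "higher" and "lower" describe these arrays only.

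A TRIM protein carries a RING domain that transfers ubiquitin, B-box zinc-binding domains and a coiled coil, followed by a variable end that recognises the target. Many members act in innate immunity: some mark sensors of viral nucleic acid or their adaptors with ubiquitin, some restrain NF-kB signalling, and some bind viral capsids or antibody-coated particles inside the cell. Several are themselves interferon-induced genes. Other branches of the family work in chromatin, muscle, red cell formation, neurons and the germ line.

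The tissue label was checked against marker genes. On the PBS array 11 of 12 markers of large peritoneal macrophages and all 8 B cell markers carried the scanner's flag for a signal well above background. So did all 11 neutrophil markers with a probe, all 8 T and NK cell markers and all 8 mast cell markers. These flags therefore do not single out a cell type or the tissue. Cd163 of the macrophage list was above background on no array. The summed signal of the 11 neutrophil markers with a probe was 1.58 to 1.90 times that of PBS on the other 4 arrays, and that of the 12 large macrophage markers was 0.518 to 0.866 times. Such a sum weighs the brightest genes most, here S100a8 and S100a9 among the neutrophil markers. S100a9 stood only 0.23 to 0.37 above PBS in log2. The median log2 difference of the neutrophil markers from PBS was larger, from 1.52 with OVA+AEPS to 2.38 with OVA+Alum. In such bulk samples, fewer cells of a type and less RNA per cell cannot be told apart, and the part of this shift in the values below was not tested. Of the probes on an array, 56.7% to 60.0% passed this flag. All 5 arrays lay on 1 slide, with PBS alone in row 1 and with PBS and OVA+Alum both in column 4, so slide position and injection cannot be told apart in comparisons that cross these positions.

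Values are log2 signals relative to the 75th percentile of the same array, and a difference of 1 on this scale is 2-fold. Each difference is given with its technical SE, which comes from the scanner's error for the spots and leaves out the spread between mice. A gene entered a comparison if its brightest probe was well above background on at least 1 of the 2 arrays. Levels of different genes come from different probes and are not set against each other.

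Of the 63 members, 48 were above background on at least 1 array and 40 on all 5, which is 63.5% of members against 68.0% of all genes. The 15 members above background on no array included Trim42, Trim61 and Trim75 of the testis and embryo group, the muscle genes Trim54, Trim55 and Trim63, and 3 members linked to innate signalling, Trim29, Trim31 and Trim38. Over the 48 detected members, the highest and the lowest array of a gene lay a median of 1.06 apart on the log2 scale, against 0.73 for all 15570 genes detected on at least 1 array. The plot of all detected members shows that this spread was uneven within the family.

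**Figure D1:**
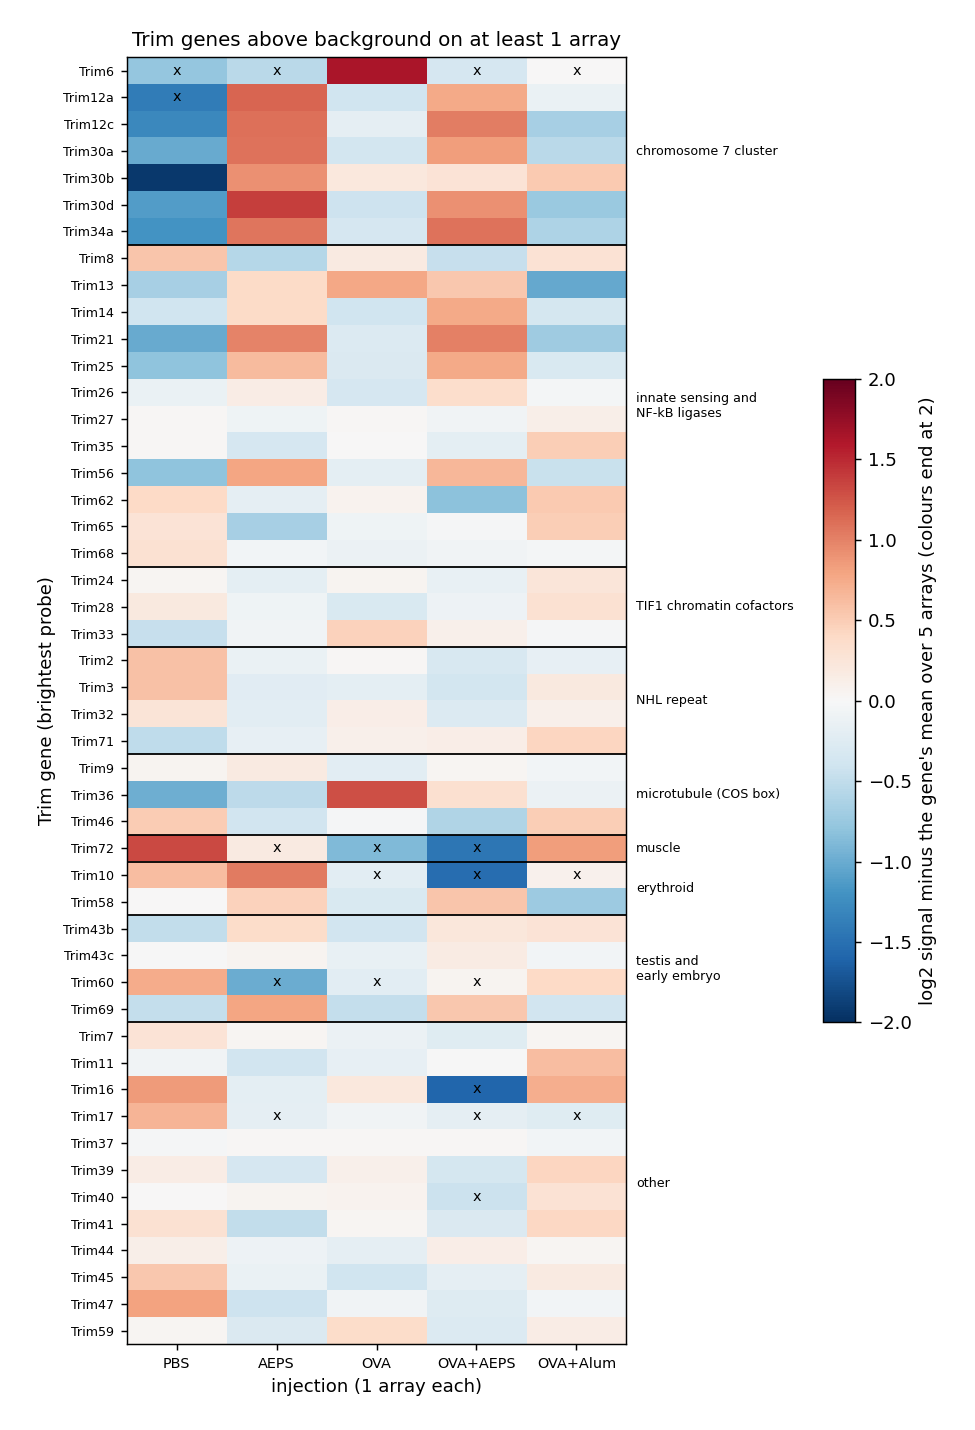
Log2 signal of each of the 48 detected Trim genes minus that gene's mean over the 5 arrays (colour), by role (rows) and injection (columns, 1 array each). An x marks an array on which the probe was not well above background; the chromosome 7 genes other than Trim6, and Trim21, Trim25 and Trim56, are red on the AEPS and OVA+AEPS arrays and blue on the PBS array.

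The genes with the clearest pattern shared a promoter feature, so their sequences are shown first. Promoter windows from RefSeq (build GRCm38.p6, 250 bases before to 50 bases after an annotated gene start) were available for 48 members and were searched on both strands for GAAA followed by any 2 bases and a second GAAA, the core of the element bound by interferon-activated factors. Of all 32851 windows in the table, 3.44% hold this motif. Counted by gene, 3.99% of the 27025 genes with a window hold it, whether detected here or not. Among the 36 detected members with a window, 8 held it, namely Trim2, Trim12a, Trim12c, Trim21, Trim26, Trim30a, Trim30d and Trim34a. Of these 8, 6 were at least 2-fold higher with AEPS than with PBS, where 8.68% of all genes compared were. Trim2 and Trim26 held the motif and were not at least 2-fold higher. The share that was higher among all genes with the motif was not computed. In the other direction, 5 of the 11 members that were at least 2-fold higher held no match, namely Trim13, Trim25, Trim30b, Trim56 and Trim69. A match is a description of these letters and not a binding site shown by these data. The stretches around the matches follow, 5′ to 3′ on the strand of the gene, with the matching bases in capitals. TTTC, any 2 bases and TTTC is the same motif read on the other strand.
Trim21 (chr7:102565442-102565481, minus strand): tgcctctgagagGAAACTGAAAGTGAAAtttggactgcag
Trim12a (chr7:104315464-104315497, minus strand): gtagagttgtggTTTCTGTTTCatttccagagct
Trim12c (chr7:104353357-104353390, minus strand): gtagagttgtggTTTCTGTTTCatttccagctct
Trim30a (chr7:104465208-104465241, minus strand): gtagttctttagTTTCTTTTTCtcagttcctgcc
Trim30a, second start (chr7:104446102-104446135, minus strand): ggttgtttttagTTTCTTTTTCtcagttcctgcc
Trim30d (chr7:104507869-104507902, minus strand): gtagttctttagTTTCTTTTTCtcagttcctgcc
Trim34a (chr7:104244455-104244488, plus strand): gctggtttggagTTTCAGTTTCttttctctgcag
Trim26 (chr17:36836974-36837013, plus strand): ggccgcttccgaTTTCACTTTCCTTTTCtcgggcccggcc
Trim2 (chr3:84212789-84212822, minus strand): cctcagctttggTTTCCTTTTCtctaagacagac

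Trim30a and Trim30d held the same stretch, and those of Trim12a and Trim12c were nearly the same. These are neighbouring, related genes of the chromosome 7 cluster. Their matches are therefore not independent examples of the motif. In Trim21 and in Trim26 a pair of matches overlapped to form the longer motif of 3 GAAA copies, each pair 2 bases apart, which 0.116% of all windows hold. The first bases of the matches lay at positions -41 to 29 from the annotated start, except in Trim26, where they lay at -160 and -154. The whole window is shown for Trim21, whose match lies just after the start, and for Trim30d, whose match lies before it.
Trim21 (chr7:102565433-102565732, minus strand): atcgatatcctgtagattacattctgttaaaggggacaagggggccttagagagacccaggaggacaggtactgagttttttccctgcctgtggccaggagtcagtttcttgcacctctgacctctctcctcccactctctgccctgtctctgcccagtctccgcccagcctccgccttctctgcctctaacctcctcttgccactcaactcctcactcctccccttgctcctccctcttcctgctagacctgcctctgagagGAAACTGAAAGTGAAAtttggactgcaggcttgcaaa
Trim30d (chr7:104507800-104508099, minus strand): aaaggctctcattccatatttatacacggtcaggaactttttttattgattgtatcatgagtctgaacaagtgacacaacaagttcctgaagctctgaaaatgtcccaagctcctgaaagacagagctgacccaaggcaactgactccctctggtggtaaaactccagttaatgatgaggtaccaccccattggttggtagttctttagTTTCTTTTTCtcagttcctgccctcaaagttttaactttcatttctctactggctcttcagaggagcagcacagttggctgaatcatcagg

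**Figure D2:**
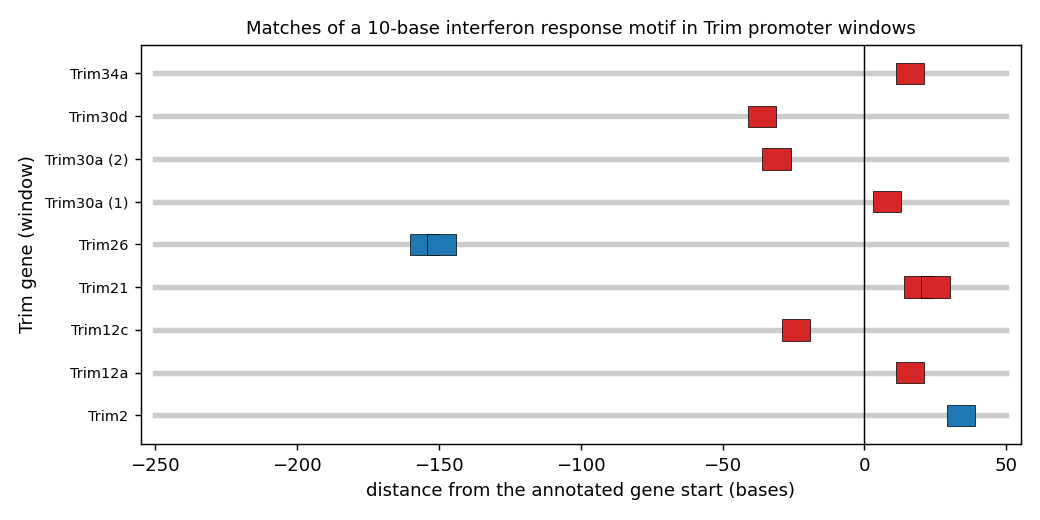
Position of each match of the GAAA pair (boxes, 10 bases long, either strand) in the promoter windows of the 8 Trim genes that hold one, in bases from the annotated gene start (vertical line). Red boxes belong to genes at least 2-fold higher with AEPS than with PBS and blue boxes to Trim2 and Trim26, which were not; Trim30a has 2 annotated starts.

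The first comparison asked how the polysaccharide alone differed from the vehicle. Of the 47 Trim genes compared, 11 stood at least 2-fold above their PBS value, which is 23.4%, where 8.68% of all genes compared were. In the other direction, 5 members were at least 2-fold lower, which is 10.6% where 6.92% of all genes were. The median difference over the members was -0.11 and over all genes -0.17, so the family as a whole did not stand above the other genes. Scaling on spike-in probes moved the median of all genes from -0.17 to 0.44, and then 17 members were at least 2-fold higher, where 20.2% of all genes were, and 1 was lower. After normexp background correction and quantile normalization, 8 were higher and 2 lower. Trim12a, Trim13 and Trim69 were then short of 2-fold higher.

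All 6 compared members of the chromosome 7 cluster, which holds the mouse relatives of the human capsid-binding restriction factor TRIM5, were at least 2-fold higher with AEPS, with a median difference of 2.45. Trim30a encodes a mouse protein that restrains NF-kB signalling from Toll-like receptors. Its level was 2.62 with PBS, 4.71 with AEPS, 3.27 with OVA, 4.47 with OVA+AEPS and 3.08 with OVA+Alum. Both arrays with AEPS thus lay above the other 3, and the AEPS difference from PBS was 2.10 ± 0.20. Its neighbour Trim30d stood at 1.37, 3.87, 2.07, 3.40 and 1.75 in the same order of injections, with a difference of 2.50 ± 0.20. The order of its arrays was the same as for Trim30a.

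Trim12c, a relative of human TRIM5, stood at -0.60 with PBS, 1.81 with AEPS, 0.53 with OVA, 1.73 with OVA+AEPS and 0.03 with OVA+Alum, and its difference was 2.41 ± 0.20. A pair of further probes of Trim12c gave 2.86 and 1.89 in AEPS against PBS. Trim34a, a relative of the human restriction factor TRIM34, stood at -1.17, 1.11, -0.31, 1.12 and -0.59, with a difference of 2.28 ± 0.21 by this probe and 1.38 by a further one. For both genes the pair of arrays with AEPS lay above all others. Trim12a was not well above background with PBS and was at least 5.57-fold higher with AEPS. After normexp and quantile normalization, which compresses dim signals, Trim12a was short of 2-fold in this comparison. Its levels were -2.66 with AEPS, -4.23 with OVA, -3.07 with OVA+AEPS and -3.96 with OVA+Alum.

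Trim30b departed from its neighbours. It stood at -3.02 with PBS, -0.19 with AEPS, -0.89 with OVA, -0.82 with OVA+AEPS and -0.57 with OVA+Alum, so the PBS array was low and the other 4 lay close together. Its difference from PBS was 2.84 ± 0.22 with AEPS, 2.14 ± 0.22 with OVA and 2.45 ± 0.22 with OVA+Alum. Of the 48 detected members, Trim30b alone was at least 2-fold lower on the PBS array than on each other array, a pattern found in 1.5% of all detected genes. It was seen with 1 probe, and the PBS array alone lay in slide row 1, so the row and the vehicle cannot be told apart. Trim6, the remaining member of the cluster, was above background only with OVA, at -4.96. Members of this cluster are close in sequence, and how far a probe reads a neighbouring copy was not tested.

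**Figure D3:**
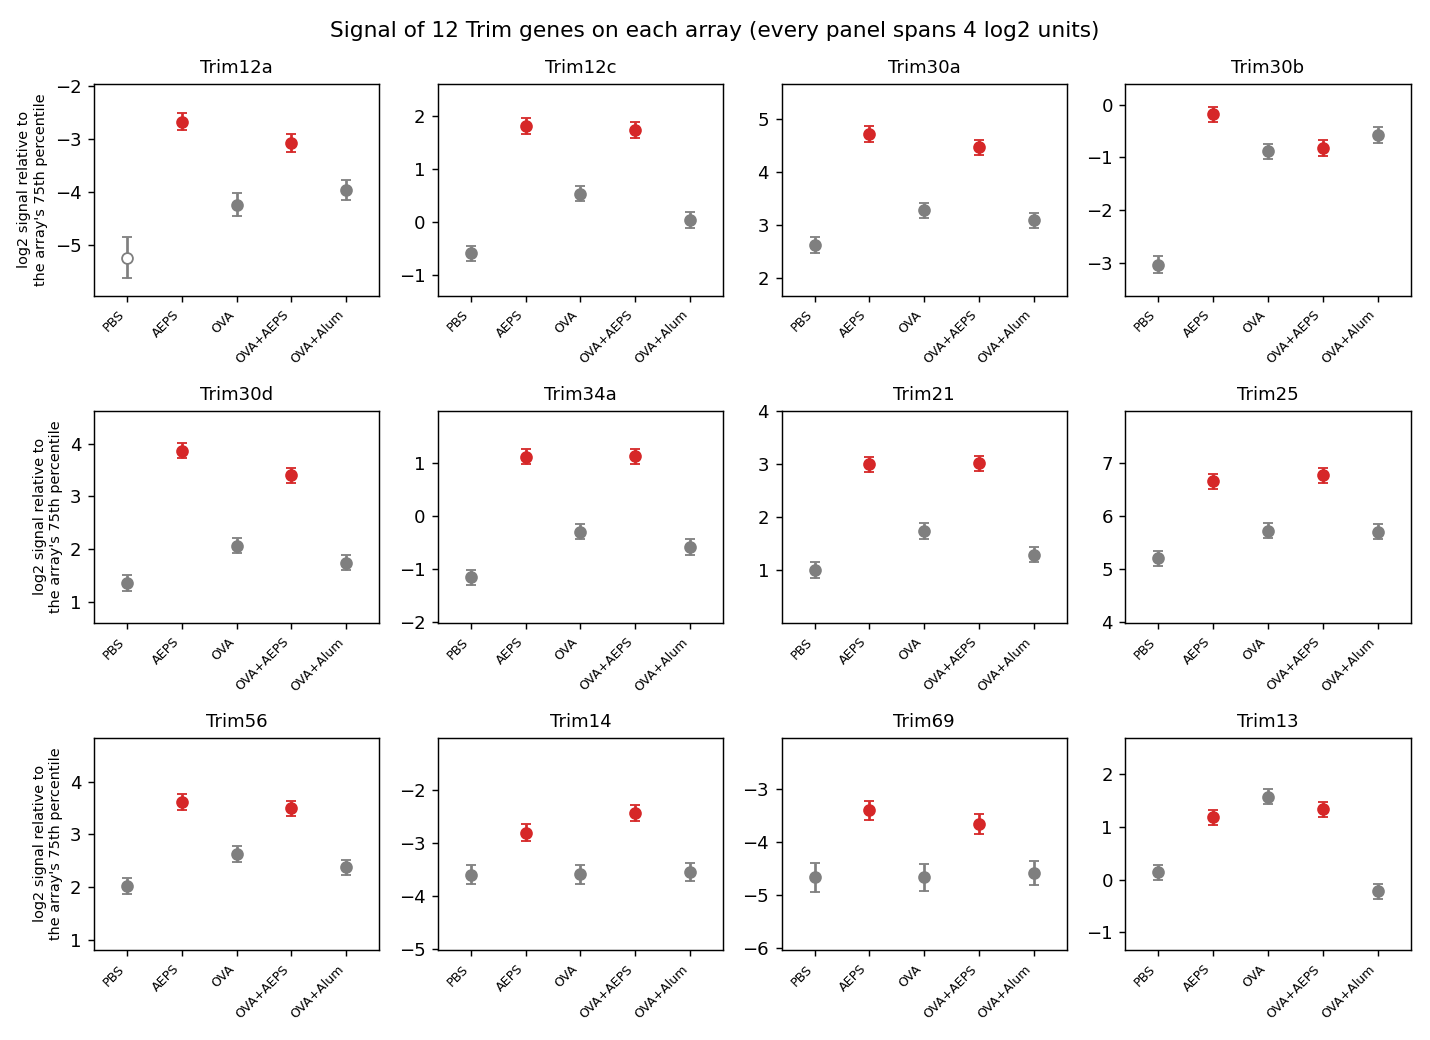
Log2 signal relative to the array's 75th percentile (vertical axis) for 12 Trim genes on each of the 5 arrays, with bars of 1 technical SE from the scanner's error; red points are the arrays with AEPS, and the open point is not well above background. In 10 of the 12 panels both red points lie above all grey ones; in Trim30b the PBS array is low by itself, and in Trim13 the PBS and OVA+Alum arrays are low.

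Among the 12 compared ligases and adaptors of innate sensing and NF-kB signalling, 4 were at least 2-fold higher with AEPS than with PBS and 1 was lower, with a median difference of 0.09. Trim21 encodes the cytosolic antibody receptor that sends antibody-coated particles to the proteasome. It stood at 1.004 with PBS, 2.9995 with AEPS, 1.74 with OVA, 3.02 with OVA+AEPS and 1.29 with OVA+Alum. The AEPS difference was 1.996 ± 0.20, with both AEPS arrays above the rest. Trim25 encodes a ligase that attaches ubiquitin chains to the RNA sensor RIG-I. Its levels were 5.20, 6.65, 5.72, 6.77 and 5.71 in the same order, with a difference of 1.45 ± 0.20. Its target gene Ddx58, which encodes RIG-I, differed in the same direction by 2.06 ± 0.20.

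Trim56 encodes a ligase that raises signalling from the DNA sensing pathway of cGAS and STING. It stood at 2.03 with PBS, 3.62 with AEPS, 2.63 with OVA, 3.49 with OVA+AEPS and 2.38 with OVA+Alum, a difference of 1.59 ± 0.20 between AEPS and PBS. The gene of cGAS was 1.94 ± 0.20 higher with AEPS, whereas that of STING, Sting1, stood at -0.91 ± 0.20. Trim14 encodes an adaptor that binds the mitochondrial sensor adaptor MAVS. Its levels were -3.60, -2.81, -3.60, -2.44 and -3.55, so the 3 arrays without AEPS were nearly level and both AEPS arrays were higher. The difference of 0.79 ± 0.24 from PBS did not reach 2-fold.

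Trim13, which encodes a ligase anchored in the endoplasmic reticulum, was 1.03 ± 0.20 higher with AEPS, and a further probe gave 0.78. Its levels were 0.14 with PBS, 1.17 with AEPS, 1.57 with OVA, 1.33 with OVA+AEPS and -0.22 with OVA+Alum. The low arrays were thus the 2 in slide column 4, and Trim13 was the only detected member at least 2-fold lower on both than on each other array. This pattern was found in 1.04% of all detected genes. Slide column and injection cannot be told apart here. Mast cell markers also differed between these arrays: 4 of 8 were at least 2-fold above PBS with AEPS, and 4 of 8 with OVA. With alum added to OVA, 3 of 8 were lower, and none went the other way in these comparisons. The part of these cells in the Trim13 values was not tested. Trim8, whose human counterpart promotes NF-kB signalling after tumour necrosis factor, ran the other way. It was spotted 10 times on each array, and outlier spots among these were left out. Trim8 stood at 3.78 with PBS, 2.65 with AEPS, 3.39 with OVA, 2.75 with OVA+AEPS and 3.51 with OVA+Alum. Its difference between AEPS and PBS was -1.13 ± 0.07.

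Other members of this group differed less. Trim65, whose protein activates the RNA sensor MDA5, stood at -1.74 with PBS, -2.66 with AEPS, -2.09 with OVA, -2.03 with OVA+AEPS and -1.52 with OVA+Alum. By this probe its AEPS array was the lowest, with a difference of -0.93 ± 0.22 from PBS. A second probe of Trim65 gave -1.07 there, but its lowest array was OVA+AEPS, at -1.16 from PBS where the first probe gave -0.29. Trim62, a ligase for the adaptor CARD9, differed by -0.57 ± 0.21. Trim26, which carries the longer motif in its promoter window, stood at 3.87 with PBS, 4.16 with AEPS, 3.68 with OVA, 4.36 with OVA+AEPS and 3.98 with OVA+Alum. Both AEPS arrays were its highest, but all 5 lay within 0.68. Trim27 varied by 0.19 over the 5 arrays, Trim68 by 0.43 and Trim35 by 0.83.

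Outside these 2 groups, the only member at least 2-fold higher with AEPS than with PBS was Trim69, which encodes a testis-enriched ligase. It was dim, at -4.67 with PBS, -3.41 with AEPS, -4.67 with OVA, -3.66 with OVA+AEPS and -4.59 with OVA+Alum, with the pair of AEPS arrays above the rest and a difference of 1.26 ± 0.33. Trim47 was lower, with levels of 1.12, -0.09, 0.25, 0.07 and 0.28 and a difference of -1.21 ± 0.20. There the PBS array was high and the other 4 lay together. Trim16, whose human counterpart takes part in the autophagy of damaged membranes, stood at -3.31 with PBS, -4.36 with AEPS, -3.95 with OVA, -5.75 with OVA+AEPS and -3.43 with OVA+Alum. Its difference between AEPS and PBS was -1.05 ± 0.33. Trim60 and the muscle gene Trim72 were also called lower, but were not above background with AEPS, where their bounds were 1.34-fold and 1.68-fold.

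On the scale of the values given here, the 3 detected chromatin cofactors of the TIF1 group were all within 2-fold on every pair of arrays. This did not hold on every scale for Trim33, which stood 0.93 ± 0.21 above PBS with OVA. It was at least 2-fold higher there with the median of each array as the scale and with spike-in scaling. With spike-in scaling, Trim33 was also at least 2-fold higher with AEPS than with PBS. Trim28, the corepressor that KRAB zinc finger proteins recruit to DNA, stood at 3.70 with PBS, 3.43 with AEPS, 3.21 with OVA, 3.40 with OVA+AEPS and 3.81 with OVA+Alum. Trim24 stood at 0.98 with PBS, 0.74 with AEPS, 0.98 with OVA, 0.78 with OVA+AEPS and 1.18 with OVA+Alum. Trim33, a regulator of SMAD signalling, stood at -2.55, -2.15, -1.63, -1.99 and -2.12, lowest with PBS and highest with OVA. The 4 members with NHL repeats, among them Trim32 and the stem cell gene Trim71, likewise spanned 0.53 to 0.96 over the 5 arrays. Trim37, a ligase of the centrosome, was the least variable detected member, with a span of 0.083.

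Genes that act with these ligases were read from a list of partners. Of 15 genes of nucleic acid sensing compared, 6 were at least 2-fold higher with AEPS than with PBS and none was lower. Of 12 genes of interferon and its response, 10 were higher and none lower, with Ifit1 at 5.98 ± 0.20, Ifit3 at 5.81 ± 0.20, Usp18 at 4.79 ± 0.20 and Rsad2 at 4.38 ± 0.20. Ifih1, the gene of MDA5, stood 4.09 ± 0.20 above PBS, while Mavs stood at -0.72 ± 0.20. Of the TRIM proteins that go by other symbols, Pml was 0.79 ± 0.20 higher and Mefv, which encodes the inflammasome sensor pyrin, 1.80 ± 0.20 higher. Neutrophil markers also differed between these arrays, with 8 of 11 at least 2-fold higher with AEPS and a median of 1.98. The part of cell composition in the Trim differences was not tested.

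The second AEPS comparison, in the presence of antigen, set OVA+AEPS against OVA and shares no array with the first. Of 45 Trim genes compared, 9 were at least 2-fold higher, where 4.03% of all genes compared were, and 2 were lower, or 4.44% where 3.64% of all genes were. The median over the members was 0.03 and over all genes -0.03. With the median of each array as the scale, and likewise in the deposited table, 7 members were higher and 3 lower. After normexp and quantile normalization, 5 were higher and 0 lower. In the chromosome 7 cluster 5 of 7 were at least 2-fold higher, with Trim34a at 1.43 ± 0.20, Trim30d at 1.33 ± 0.20, Trim12c at 1.20 ± 0.20, Trim30a at 1.20 ± 0.20 and Trim12a at 1.16 ± 0.28. The other probe of Trim12a was above background on 1 array only, and by the median over its probes Trim12a was not 2-fold higher. Trim30b stood at 0.07 ± 0.21.

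Among the sensing ligases, Trim21 was 1.28 ± 0.20 higher, Trim14 1.15 ± 0.23 higher and Trim25 1.04 ± 0.20 higher with AEPS added to OVA. Trim56 stood at 0.86 ± 0.20, short of 2-fold. Trim69 was 1.01 ± 0.32 higher. Neutrophil markers were closer to even here, with 1 of 11 at least 2-fold higher, 1 lower and a median of 0.10. Other cell markers differed more: those of inflammatory monocytes had a median of -0.60 with 1 of 5 lower, those of mesothelium and stroma a median of 0.74 with 1 of 8 higher, and Itgax, Flt3, Gata6 and Ncr1 were lower and Gzmb higher. Their part in the Trim differences was not tested. Of the 15 sensing genes, 4 were higher, with Ddx58 at 1.99 ± 0.20, and of the 12 interferon and response genes 8 were higher. The largest of these differences were 3.93 ± 0.20 for Ifit3, 3.51 ± 0.20 for Usp18, 2.85 ± 0.20 for Ifit1 and 2.36 ± 0.20 for Rsad2. Neither list had a gene at least 2-fold lower.

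Those called lower with AEPS added to OVA were Trim6 and Trim16. Trim6 was above background with OVA only, and its bound was 1.02-fold. Trim16 was not well above background with OVA+AEPS and was at least 2.06-fold lower by its brightest probe, but its other probe stood at 0.46 in the same comparison. The probes of Trim16 thus disagreed, and no direction is given for this gene in the presence of OVA.

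Members that differed in both AEPS comparisons were Trim12a, Trim12c, Trim21, Trim25, Trim30a, Trim30d, Trim34a and Trim69, which is 8 of the 48 detected members at least 2-fold higher in both, where 1.68% of all detected genes were. Of these, Trim25 and Trim69 were short of 2-fold in OVA+AEPS against OVA when the median of each array was the scale, in the deposited table and after normexp and quantile normalization. Trim12a was short of it there after normexp and quantile normalization and by the median over probes. In AEPS against PBS, Trim12a and Trim69 were short of 2-fold after normexp and quantile normalization. A stricter pattern, with both AEPS arrays at least 2-fold above each of the other 3, held for Trim12c, Trim21, Trim30a, Trim30d and Trim34a, which is 5 of 48, where 1.09% of all detected genes had it. No member had both AEPS arrays at least 2-fold below the other 3, where 0.578% of genes did. At any size of difference, both AEPS arrays were the highest for 13 of the 48 members, where this held for 13.4% of detected genes, and the lowest for 13, where it held for 23.9%.

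**Figure D4:**
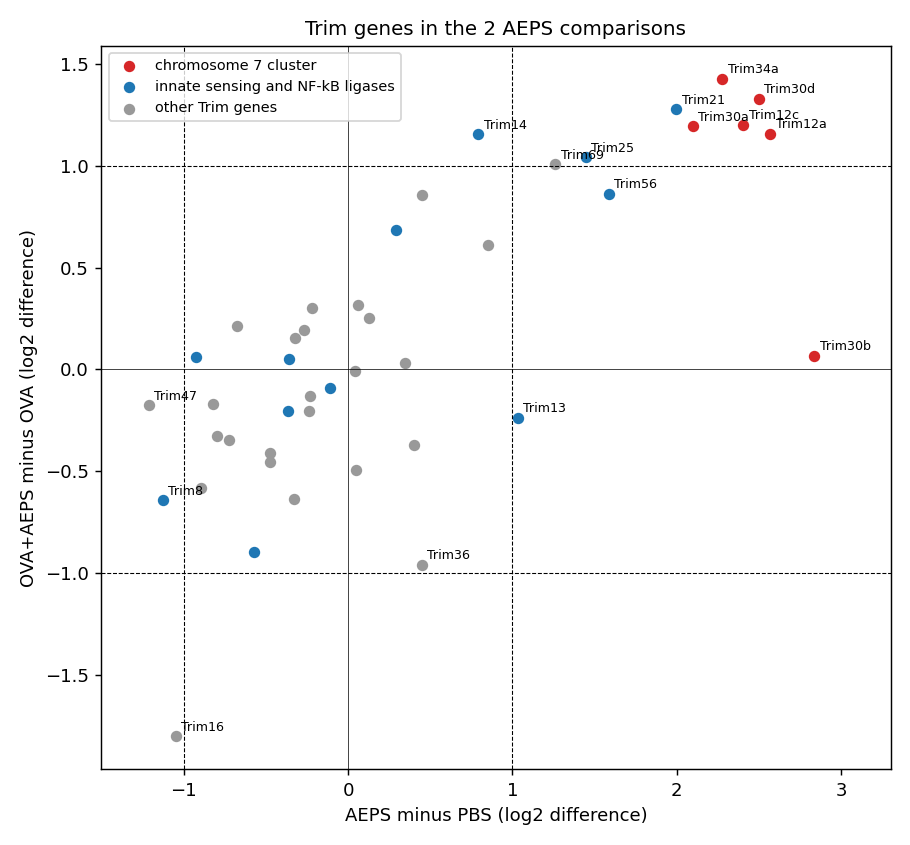
Log2 difference of AEPS from PBS (horizontal) against that of OVA+AEPS from OVA (vertical) for the 43 Trim genes above background on at least 3 arrays; the comparisons share no array, and dashed lines mark 2-fold. The chromosome 7 genes other than Trim30b and Trim6, with Trim21, Trim25 and Trim69, lie above 2-fold on both axes; Trim30b, Trim13 and Trim56 do so only on the horizontal axis and Trim14 only on the vertical one.

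For the 5 genes of the stricter pattern, and for Trim25 and Trim56, the AEPS difference was smaller between the arrays with antigen than between those without it. The difference with OVA minus that without it was -1.20 for Trim12c, -1.17 for Trim30d, -0.90 for Trim30a, -0.85 for Trim34a, -0.72 for both Trim21 and Trim56 and -0.40 for Trim25. Trim69 stood at -0.25 ± 0.46, and Trim14 went the other way at 0.36 ± 0.34. The median of this value was 0.05 over 40 members and 0.13 over 13678 genes above background on all arrays. Over the 40 members it ran from -2.77 for Trim30b to 1.04 for Trim47. The 7 genes of the first list were picked by their values on these same arrays, so their shared sign is a description only. For these 7 genes the value has a technical SE near 0.29. It holds the error of 4 arrays and was not tested. The PBS array among them lay alone in slide row 1, so slide row and vehicle cannot be told apart here. Between OVA+AEPS and AEPS, 0 of 44 Trim genes were at least 2-fold higher, where 2.05% of all genes were. Trim10 and Trim16 were called lower, where 1.88% of all genes were, but both were below background with OVA+AEPS, with bounds of 1.55-fold and 1.56-fold. The other probe of Trim16 ran the opposite way, so no direction is given for it.

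Antigen alone was then compared with the vehicle. With OVA, 5 of 48 Trim genes stood at least 2-fold above PBS, which is 10.4% where 6.71% of all genes compared were, and 1 was lower, or 2.08% where 4.07% of all genes were. The median over members was -0.07 and over all genes -0.14. After normexp and quantile normalization, 3 were higher and 0 lower. Higher were Trim30b at 2.14 ± 0.22, Trim13 at 1.43 ± 0.20, Trim12c at 1.12 ± 0.20, Trim36 at 2.25 ± 0.25, and the dim Trim6, whose bound was 1.13-fold. Trim36, which encodes a microtubule-associated ligase, stood at -3.98 with PBS, -3.53 with AEPS, -1.73 with OVA, -2.69 with OVA+AEPS and -3.13 with OVA+Alum. Its OVA array was the highest, and the array with PBS the lowest. Trim72 was called lower but was below background with OVA.

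Short of 2-fold, several further genes also lay above PBS on the OVA array, with Trim34a at 0.86 ± 0.21, Trim21 at 0.73 ± 0.20, Trim30d at 0.70 ± 0.20, Trim30a at 0.65 ± 0.20, Trim56 at 0.60 ± 0.20 and Trim25 at 0.52 ± 0.20. The sensing ligases as a group did not, with a median of -0.02 over 12 genes. For 7 members, namely Trim12c, Trim21, Trim25, Trim30a, Trim30d, Trim34a and Trim56, the levels ran in the same order: both AEPS arrays highest, then OVA, then OVA+Alum, then PBS. This order was chosen after the values were seen, and 3.94% of all detected genes had it. Some of its steps are small against the technical SE, such as that of Trim25 from OVA+Alum to OVA, which was 0.02 ± 0.20. Of the interferon and response genes, 6 of 12 were at least 2-fold higher with OVA, and of the sensing genes 1 of 15, Ifih1 at 3.04 ± 0.20. Ifit1 stood at 2.61 ± 0.20 and Ifit3 at 1.88 ± 0.20, and Ifnb1, the interferon beta gene, was above background with OVA but not with PBS. Neutrophil markers were at least 2-fold higher for 9 of 11.

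Adding alum to OVA moved few members. In OVA+Alum against OVA, 1 of 47 Trim genes was at least 2-fold higher, which is 2.13% where 3.96% of all genes compared were, and 3 were lower, or 6.38% where 5.61% of all genes were. These shares were close to those of all genes. The median over members was 0.11 and over all genes 0.07. After normexp and quantile normalization, 0 were higher and 1 lower. Lower were Trim13 at -1.79 ± 0.20, for which a further probe gave -1.71, Trim36 at -1.40 ± 0.22 and the dim Trim6. Against PBS, which shares slide column 4 with the OVA+Alum array, Trim13 stood at -0.36 ± 0.20 and Trim36 at 0.86 ± 0.25. Trim72 was called higher from an OVA array below background, with a bound of 1.26-fold.

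None of the chromosome 7 genes above background on both arrays differed 2-fold between OVA+Alum and OVA. Trim12c stood at -0.50 ± 0.20, Trim30d at -0.32 ± 0.20, Trim34a at -0.29 ± 0.20 and Trim30a at -0.19 ± 0.20. Trim21 stood at -0.44 ± 0.20, and Trim25 at -0.02 ± 0.20. Trim11, which encodes a ligase that limits several innate pathways in human cells, stood at 4.37 with PBS, 4.05 with AEPS, 4.28 with OVA, 4.43 with OVA+AEPS and 5.06 with OVA+Alum. Its OVA+Alum array was the highest, 0.78 ± 0.20 above OVA. Of the interferon and response genes none was at least 2-fold higher and 2 were lower, Ifnb1, which was not above background with OVA+Alum, and Ifit1 at -1.01 ± 0.20. Of the sensing genes 1 was lower, Ikbke at -1.12 ± 0.20, which encodes a kinase downstream of the sensors, and Ifih1 stood at -0.9998 ± 0.20. Cell markers differed more widely between these arrays. At least 2-fold higher with alum were 6 of 8 markers of mesothelium and stroma, 4 of 7 of red cells and platelets and 2 of 11 of neutrophils. Lower were 3 of 8 mast cell, 3 of 11 large macrophage and 2 of 5 inflammatory monocyte markers. Their part in the Trim differences was not tested.

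The adjuvants were compared directly, both with antigen. In OVA+AEPS against OVA+Alum, 10 of 45 Trim genes were at least 2-fold higher, which is 22.2% where 6.83% of all genes compared were, and 4 were lower, or 8.89% where 6.32% of all genes were. The median over members was -0.19 and over all genes -0.05. After normexp and quantile normalization, 8 were higher and 0 lower. Higher with AEPS were 4 chromosome 7 genes, Trim34a at 1.71 ± 0.20, Trim12c at 1.70 ± 0.20, Trim30d at 1.65 ± 0.20 and Trim30a at 1.38 ± 0.20. From the sensing group came Trim21 at 1.72 ± 0.20, Trim13 at 1.55 ± 0.20, Trim14 at 1.11 ± 0.23, Trim56 at 1.11 ± 0.20 and Trim25 at 1.06 ± 0.20. The tenth was Trim58, discussed with the red cell genes. Among the partners, 6 of 15 sensing genes and 9 of 12 interferon and response genes were higher, with Ifit3 at 4.66 ± 0.20, Usp18 at 4.12 ± 0.20 and Ifit1 at 3.85 ± 0.20, and with Ifnb1 above background on the AEPS side only. OVA+AEPS lay in slide column 3 and OVA+Alum in column 4.

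Lower with AEPS than with alum were Trim62 at -1.35 ± 0.22, Trim46 at -1.09 ± 0.21, Trim16 and Trim72. Trim72 was below background with OVA+AEPS, with a bound of 1.06-fold. The probes of Trim16 disagreed here too, with a bound of at least 2.96-fold by the brightest and a difference of -0.09 by the other. Trim62 stood at -1.71 with PBS, -2.28 with AEPS, -2.03 with OVA, -2.93 with OVA+AEPS and -1.58 with OVA+Alum. Its target's gene, Card9, stood at 0.19 ± 0.21 in this comparison. Trim46, known for organising microtubules at the start of the axon, stood at -0.90, -1.79, -1.43, -2.01 and -0.91, with both AEPS arrays lowest. Markers of mesothelium and stroma were lower on the AEPS side for 2 of 8, with a median of -0.81, and their summed signal over PBS was 1.60 with OVA+AEPS and 2.70 with OVA+Alum. Large peritoneal macrophage markers were higher for 5 of 11, and their summed signal was 0.866 and 0.518 times that of PBS. The part of these cells in the Trim differences was not tested.

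Trim10 and Trim58 are linked to red cell formation, Trim58 as a ligase that acts on the motor protein dynein in maturing erythroblasts. Trim10 was above background with PBS, at -4.79, and with AEPS, at -4.36, and on no other array. Trim58 stood at -4.54 with PBS, -4.09 with AEPS, -4.85 with OVA, -4.00 with OVA+AEPS and -5.27 with OVA+Alum, and its 1.27 ± 0.38 difference between OVA+AEPS and OVA+Alum rests on dim spots. Markers of red cells and platelets had a summed signal, relative to PBS, of 1.39 with AEPS, 0.544 with OVA, 0.817 with OVA+AEPS and 0.776 with OVA+Alum. Alas2, which encodes the erythroid enzyme that starts haem synthesis, stood at 4.81 with PBS, 5.87 with AEPS, 2.74 with OVA, 3.56 with OVA+AEPS and 4.35 with OVA+Alum. Trim10, a dim gene, was thus detected on the 2 arrays where Alas2 was highest. Trim58 did not follow Alas2: it was highest with OVA+AEPS and lowest with OVA+Alum, whereas Alas2 was highest with AEPS and lowest with OVA. The part of red cells in these values was not tested.

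Because the PBS array alone lay in slide row 1, AEPS was also set against the OVA array. There 8 of 46 Trim genes were at least 2-fold higher, where 4.22% of all genes were, and 2 were lower, where 3.27% were. Trim30d stood at 1.80 ± 0.20, Trim12a at 1.57 ± 0.27, Trim30a at 1.44 ± 0.20, Trim34a at 1.42 ± 0.20, Trim12c at 1.28 ± 0.20, Trim21 at 1.26 ± 0.20 and Trim69 at 1.26 ± 0.32. Trim10 was the eighth, and was not above background with OVA. Trim25 at 0.93 ± 0.20 and Trim56 at 0.99 ± 0.20 fell just short of 2-fold. These arrays differ in the antigen as well as the polysaccharide, so this is not a measure of AEPS alone.

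Both combined injections were also set against the vehicle. In OVA+AEPS against PBS, 13 of 47 Trim genes were at least 2-fold higher, where 8.21% of all genes were, and 7 were lower, where 6.26% were. Among these 7, Trim10 and Trim72 were below background with OVA+AEPS, with bounds under 2-fold. Trim16 was also below background there by its brightest probe, and its other probe stood at -0.46. In OVA+Alum against PBS, 2 of 47 were higher, Trim12a, at least 2.26-fold, and Trim30b, where 6.37% of all genes were, and 0 were lower, where 5.3% were. Against the shared PBS array the sensing ligases stood at 2.01 for Trim21, 1.56 for Trim25 and 1.46 for Trim56 with OVA+AEPS, and at 0.29, 0.50 and 0.35 with OVA+Alum. The technical SE of each of these values was 0.20.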

How the data were processed

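Single-colour (Cy3) Agilent arrays, 1 per injection, were used. The deposited scanner files hold intensity values, which the authors made with Agilent Feature Extraction 10.7.1.1 per the file headers: background was subtracted, the signal detrended within each array, and surrogate values set near background. Flags per spot are other values of 0 or 1, per the file headers. The value table deposited by the authors holds log2 values normalized so that every array has the same quartiles and a median of 4.66, as quantile normalization gives; this was worked out from the values, and no source used here states the step. Its correlation with the scanner signal in log2 was at least 0.9998 on each array.

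Of 62976 spots, 3671 controls and 134 to 219 outlier spots per array were left out, and none was saturated. Log2 processed signal minus the array's 75th percentile was averaged over spots of a probe. Probes took a symbol from their RefSeq accession through the GRCm38.p6 annotation (26582 of 55681 probes); the files name no genome build for the array. A gene was read from its probe of highest mean signal. A call is a difference of at least 2-fold; with 1 array per group no test was possible, and the number of arrays limits the precision. Where 1 array was below background, the fold is a bound ("at least"), computed with the larger of the signal there and the lowest signal well above background on that array. Calls were tested on simulated data. Alternatives were the median and spike-in scales, normexp with offset 50 and quantile normalization (limma 3.58.1, R 4.3.3), the deposited table, other filters, and the median over probes. Python 3.11.15 was used otherwise.

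The members, partner lists, marker lists and rules were chosen with earlier results of these data known. Any member could be named. Levels on all arrays were given for those above background on 3 or more arrays that varied at least 2-fold, and in any case for Trim14, Trim21, Trim24, Trim25, Trim28, Trim30a, Trim33 and Trim56. Of the partners, the 4 with the largest absolute difference in a comparison were named, and any that a described ligase acts on. Mx1, Mid1, Ly6g and Ly6c2 had no matched probe. Probe sequences were not used here.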

Additional observations from a re-analysis of the deposited data

How the results depend on the processing

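For members whose levels were given by the rule above, the 5 main comparisons held 43 differences of at least 2-fold. All kept their sign under every alternative chosen at the outset, in 298 of 298 values, and 268 of these stayed at least 2-fold. The alternative filters change which genes enter and leave each value as it was, so their part of these values could not move. The median and spike-in scales shift all genes of a comparison equally, by less than 2-fold, so they could not turn a sign. The median over probes cannot move a member with 1 probe. The kept signs are therefore in large part fixed by how these settings work. Calls of dim members such as Trim6, Trim60 and Trim72, and the further comparisons, were not among the 43. Over the 8 settings, the AEPS against PBS difference ran from 2.10 to 2.70 for Trim30a, 1.95 to 2.60 for Trim21 and 1.43 to 2.05 for Trim25. In OVA+AEPS against OVA it ran from 1.105 to 1.32 for Trim30a, but from 0.91 to 1.17 for Trim25, which is short of 2-fold with normexp and quantile normalization, with the median scale and in the deposited table. Of 74 recomputed counts of members, 52 stayed within 1.5 times the count as reported. With spike-in scaling, 17 members were higher and 1 lower in AEPS against PBS, and 8 were higher in OVA against PBS. After normexp and quantile normalization, which compresses dim signals, AEPS against PBS had 2 lower, OVA against PBS 3 higher and 0 lower, OVA+AEPS against OVA 5 higher and 0 lower, OVA+Alum against OVA 0 higher and 1 lower, and OVA+AEPS against OVA+Alum 0 lower. With both arrays required above background, the lower members numbered 3 in AEPS against PBS, 0 in OVA against PBS, 0 in OVA+AEPS against OVA and 2 in OVA+AEPS against OVA+Alum, and 0 were higher in OVA+Alum against OVA. Without a filter, 3 were lower in OVA against PBS and 2 higher in OVA+Alum against OVA. By the median over probes, 1 was lower in OVA+AEPS against OVA, Trim9, in place of Trim6 and Trim16. Chosen after seeing the data, the OVA array as control for AEPS gave 2 lower, and the PBS array as control for OVA+Alum gave 2 higher and 0 lower. Apart from the fewer genes or other arrays that a setting itself brings, the cause was not tested. No paired analysis was possible because each group has 1 array.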
